A study of Mus musculus with 12 samples.

Results

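Replication-independent histone variants are the histones that cells make and deposit outside DNA replication. The 9 genes H2afz, H2afv, H2afx, H2afy, H2afj, H3f3a, H3f3b, H1f0 and H1fx were taken by symbol from the 24421 genes of a table of read counts. The table holds total RNA after rRNA depletion and ribosome-protected fragments (RPF, or footprints, the stretches of mRNA that translating ribosomes shield from nuclease) of the B16 mouse melanoma cell line. All cells carried a lentiviral shRNA, either a non-relevant one (shControl) or one against Elp3 (shElp3, named sh309), the catalytic subunit of the Elongator complex that modifies wobble uridines of tRNAs. There were 12 libraries, 3 (letters A to C) for each shRNA in each fraction, and the labels link every RPF library with 1 RNA library, giving 6 cultures. The knockdown rests on 1 shRNA sequence, and nothing says that the letters are separate transductions, so the p-values speak of these cultures and their spread may be technical.

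Most histones are made in S phase from clustered genes whose mRNAs end in a stem-loop instead of a poly(A) tail. Replacement variants come from scattered genes with polyadenylated mRNAs, are made through the cell cycle, and exchange into nucleosomes at promoters, enhancers, heterochromatin and DNA breaks. Dedicated chaperones carry them there, such as SRCAP and p400 for H2A.Z and HIRA, DAXX and ATRX for H3.3. H2A.X is a mixed case, since its gene gives both a stem-loop and a polyadenylated transcript.

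Library totals were 7914369 to 16527864 counts in RNA and 7619269 to 10998570 in RPF, of which the 9 genes took 0.165 to 0.227% and 0.168 to 0.263%. Elp3 itself fell from 78.7 ± 13.3 to 37.3 ± 3.42 CPM (counts per 1e6, scaled by TMM; SD, n = 3) in RNA in the fit with the letter as a block (log2 fold change -1.07, edgeR adjusted p = 0.000977), and was not called without it (0.0831). In footprints it fell from 105 ± 11.4 to 55.0 ± 5.86 CPM (SD, n = 3; -0.93, edgeR adjusted p = 0.0249). Letter A libraries stood apart in 3 of the 4 groups. Chi-square over genes divided by its degrees of freedom came to 213 and 229 for A against B and C in control RNA (8.70 for B against C), to 90.1 and 99.0 in shElp3 RNA (17.9) and to 80.4 and 73.7 in control RPF (11.1). In shElp3 RPF it was 13.5 and 18.7, beside 18.4 for B against C. The 7 melanocyte markers, none at 0, summed to 8821 to 11767 CPM in control RNA and 5865 to 7399 CPM in shElp3 RNA, and Pmel, a melanosome protein, fell (-1.59, edgeR adjusted p = 0.0396). The 8 leukocyte markers summed to 7.61 to 22.5 and 6.23 to 11.7 CPM with 3 genes at 0 in each group, and the 6 fibroblast markers to 30.4 to 37.6 and 48.0 to 62.2 CPM with 1 and 2 genes at 0. With the letter block 2 fibroblast markers rose in RNA, the collagen gene Col1a1 (1.10, edgeR adjusted p = 0.0141) and Postn (0.73, 0.0357), and Col1a1 rose in footprints (1.48, 0.0203 without the block). The leukocyte markers with the highest levels, Cd68 and Lyz2, had means of 11.1 and 2.16 CPM in control RNA and 5.98 and 2.93 CPM in shElp3 RNA. The part of these differences in the results was not tested. Of the 9 histone variants 8 passed the count filter in both fractions. Their lowest count in any library was 216, for H2afx. H1fx, the linker histone H1.10 (chromosome 6, 87980421 to 87981482), had 0 counts in all 12 libraries, which allows at most 0.394 CPM in the shallowest of them (3 counts), counting error only. Whether its reads were lost in alignment or counting cannot be settled from the count table, so the 0 does not show that the gene is silent.

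The promoters shown here were chosen because each holds 3 or more matches to CCAAT on either strand, at any position. The CCAAT box is known from many histone promoters as a binding site of NF-Y. Whether a match is such a site was not tested. They run 5′ to 3′ from 250 bases before to 50 bases after a RefSeq transcript start, in build GRCm38.p6. The windows are chr3:137864237-137864536 (plus strand) for H2afz, chr11:6444394-6444693 (minus) for H2afv, chr6:136807998-136808297 (plus) for H2afj and chr11:116024455-116024754 (minus) for H3f3b. Capitals mark matches on either strand to the CCAAT box, to the CHR element of cell cycle genes by its core TTTGAA, and to the TATA box as TATAAA. The H3f3b window lies inside the annotated span of the gene (116021961 to 116026039), so its start is not the outermost one. The start used for H2afv also lies inside its gene span (6427226 to 6444511), so it is not the outermost either. The sequences follow by name.
H2afz: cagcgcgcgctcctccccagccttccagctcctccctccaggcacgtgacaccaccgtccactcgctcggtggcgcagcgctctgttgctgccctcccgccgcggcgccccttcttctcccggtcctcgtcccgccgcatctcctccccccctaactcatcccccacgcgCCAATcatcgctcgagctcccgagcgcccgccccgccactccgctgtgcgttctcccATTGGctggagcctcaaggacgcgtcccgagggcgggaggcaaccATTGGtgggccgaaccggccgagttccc
H2afv: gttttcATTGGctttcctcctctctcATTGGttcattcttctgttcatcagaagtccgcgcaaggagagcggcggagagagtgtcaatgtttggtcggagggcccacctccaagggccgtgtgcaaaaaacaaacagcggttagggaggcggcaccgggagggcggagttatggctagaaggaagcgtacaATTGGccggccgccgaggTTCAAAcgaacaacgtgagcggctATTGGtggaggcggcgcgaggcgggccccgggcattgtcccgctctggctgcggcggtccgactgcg
H2afj: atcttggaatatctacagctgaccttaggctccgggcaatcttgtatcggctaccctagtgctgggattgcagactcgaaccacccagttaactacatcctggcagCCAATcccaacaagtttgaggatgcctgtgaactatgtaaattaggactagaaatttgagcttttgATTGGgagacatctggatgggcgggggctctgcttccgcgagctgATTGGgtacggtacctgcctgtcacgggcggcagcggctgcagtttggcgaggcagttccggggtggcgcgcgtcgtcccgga
H3f3b: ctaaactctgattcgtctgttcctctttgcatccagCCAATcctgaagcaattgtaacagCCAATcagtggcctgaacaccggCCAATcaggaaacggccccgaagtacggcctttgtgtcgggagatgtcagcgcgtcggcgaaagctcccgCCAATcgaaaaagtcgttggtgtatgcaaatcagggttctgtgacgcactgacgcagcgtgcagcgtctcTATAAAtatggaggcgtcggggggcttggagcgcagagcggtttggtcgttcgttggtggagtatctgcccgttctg

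Of the 9 variants 8 matched a promoter entry, and H2afx did not. CCAAT, searched on both strands, occurred 3 times in H2afz, 4 times in H2afv, 3 times in H2afj, 4 times in H3f3b and 1 time in H3f3a, and 0 times in H2afy, H1f0 and H1fx. The H2afz matches began at positions -80, -23 and 23 relative to the start, the last of them after it. Those of H2afv began at -244, -224, -59 and -17. Among all 32851 promoter windows of this length 37.4% held at least 1 CCAAT and 3.4% held 3 or more. TTTGAA occurred in H2afv only, 41 bases before the start, and in 17.9% of all windows. TATAAA occurred in H3f3b only, and in 13.6% of all windows. No matches overlapped. The motifs were chosen with the values of the variants known.

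The first question was whether variant mRNAs differed in abundance between shElp3 and shControl cells. H2afx, H2afz and H3f3a fell when the letter was fitted as a block, and no variant rose. Without the block 0 of 8 tested variants were called by edgeR, against 140 of 12274 genes (1.14%) in either direction and 0.921% lower. At an unadjusted p under 0.05 were 3 of 8 variants, beside 1519 of 12274 genes. With the block 3 of 8 were called, all lower, against 12.2% of genes in either direction and 6.75% lower. The match of B with B and C with C that this block takes is not shown by these data. DESeq2 called 2 lower (H2afx and H2afz), against 5.31% of genes in either direction and 3.43% lower. The median log2 fold change of the 8 was -0.41, with 7 values below 0. Over all 12274 genes tested the median was -0.02, with 6375 values below 0. In 4 of 8 (H2afz, H2afv, H2afx and H2afy) every shElp3 library lay below every control library, a pattern found in 9.56% of genes. In such bulk samples fewer cells of a kind and less RNA per cell cannot be told apart.

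H2afx (RefSeq H2ax, chromosome 9, 44334715 to 44336077) encodes H2A.X, the variant that ATM, ATR and DNA-PK phosphorylate around DNA breaks. Its RNA stood at 88.6, 236 and 253 CPM in shControl A, B and C and at 30.1, 55.5 and 46.1 CPM in shElp3 A, B and C. The control A library was far below the other controls, and still above all 3 shElp3 libraries. The log2 fold change was -2.14 (SE 0.45, edgeR adjusted p = 0.0869), which leaves 22.8% of the control level, and -2.04 (SE 0.20, adjusted p = 1.17e-05) with the letter block. Within letters A, B and C it was -1.56, -2.09 and -2.46. The call without a block was made once shControl A was left out (-2.48, edgeR adjusted p = 0.00242), and not when any other RNA library was (0.233 to 0.371).

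H2afz (RefSeq H2az1, chromosome 3, 137864487 to 137866922) encodes H2A.Z.1, which replaces H2A beside active promoters and is needed for embryonic development. Its RNA was 406, 379 and 323 CPM in shControl and 263, 150 and 192 CPM in shElp3. The groups did not overlap, with the highest shElp3 value in letter A. The fold change was -0.87 (SE 0.27, edgeR adjusted p = 0.231) without the block and -0.90 (SE 0.20, adjusted p = 0.00934) with it. H2afv (RefSeq H2az2, chromosome 11, 6427226 to 6444511), which encodes the close relative H2A.Z.2, had 127, 96.7 and 95.2 CPM in shControl and 79.0, 70.6 and 71.9 CPM in shElp3. Its groups did not overlap either, but its change of -0.52 (SE 0.21) was not called without the block (edgeR adjusted p = 0.375) or with it (0.0665).

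H3f3a (chromosome 1, 180802560 to 180813605) and H3f3b (chromosome 11, 116021961 to 116026039) encode the same H3.3 protein from different mRNAs. H3f3a RNA was 395, 205 and 180 CPM in shControl and 241, 136 and 128 CPM in shElp3. Letter A was the highest library of each group and the groups overlapped, while within each letter shElp3 was lower, by 0.71, 0.59 and 0.49 on the log2 scale. The fold change was -0.63 (SE 0.40, edgeR adjusted p = 0.617) without the block and -0.60 (SE 0.18, adjusted p = 0.0403) with it. Without the block and without shControl A it was -0.19 (edgeR adjusted p = 0.746). H3f3b RNA was 1037, 708 and 753 CPM in shControl and 939, 766 and 627 CPM in shElp3, with groups that overlapped and differences of both signs between letters (-0.14, 0.11 and -0.26). It was not called (-0.10, SE 0.29, edgeR adjusted p = 0.95). RefSeq lists H3f3c and a pair of H3f3a pseudogenes, none of which has a row in the count table. Reads that match several copies make the H3f3a counts uncertain. Copies of the other variants were not searched for, so the same limit may hold for them.

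The other 3 measured variants were not called in RNA with or without the block. H2afy (RefSeq Macroh2a1, chromosome 13, 56073622 to 56135626), which encodes macroH2A1, a large H2A with a macro domain found on silent chromatin, had 96.8, 88.0 and 95.1 CPM in shControl and 84.1, 75.5 and 70.0 CPM in shElp3. The groups did not overlap and the difference was small (-0.29, SE 0.20, edgeR adjusted p = 0.657). The annotated gene Gm31485 overlaps it, so its counts may hold reads of both, and its splice forms cannot be told apart in gene counts. H2afj (RefSeq H2aj, chromosome 6, 136808248 to 136810074), which encodes H2A.J, an H2A close to the canonical one that is known to accumulate in senescent cells, had 343, 146 and 158 CPM in shControl and 304, 213 and 200 CPM in shElp3. Letter A was again high in both groups, the change within letters was -0.17, 0.55 and 0.34, and the fit gave 0.15 (SE 0.38, edgeR adjusted p = 0.944). With letters B and C only, H2afj was called higher (0.44, edgeR adjusted p = 0.0394) and H2afx, H2afz and H3f3a lower (-2.27, -1.03 and -0.55), against 19.4% of genes in either direction, 8.88% higher and 10.5% lower. H1f0 (chromosome 15, 79028212 to 79030504), which encodes H1.0, the linker histone typical of differentiated and quiescent cells, had 229, 271 and 288 CPM in shControl and 306, 239 and 215 CPM in shElp3. Its direction differed between letter A (0.42) and letters B and C (-0.18 and -0.42), and the fit gave -0.05 (SE 0.24, edgeR adjusted p = 0.97).

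**Figure D1:**
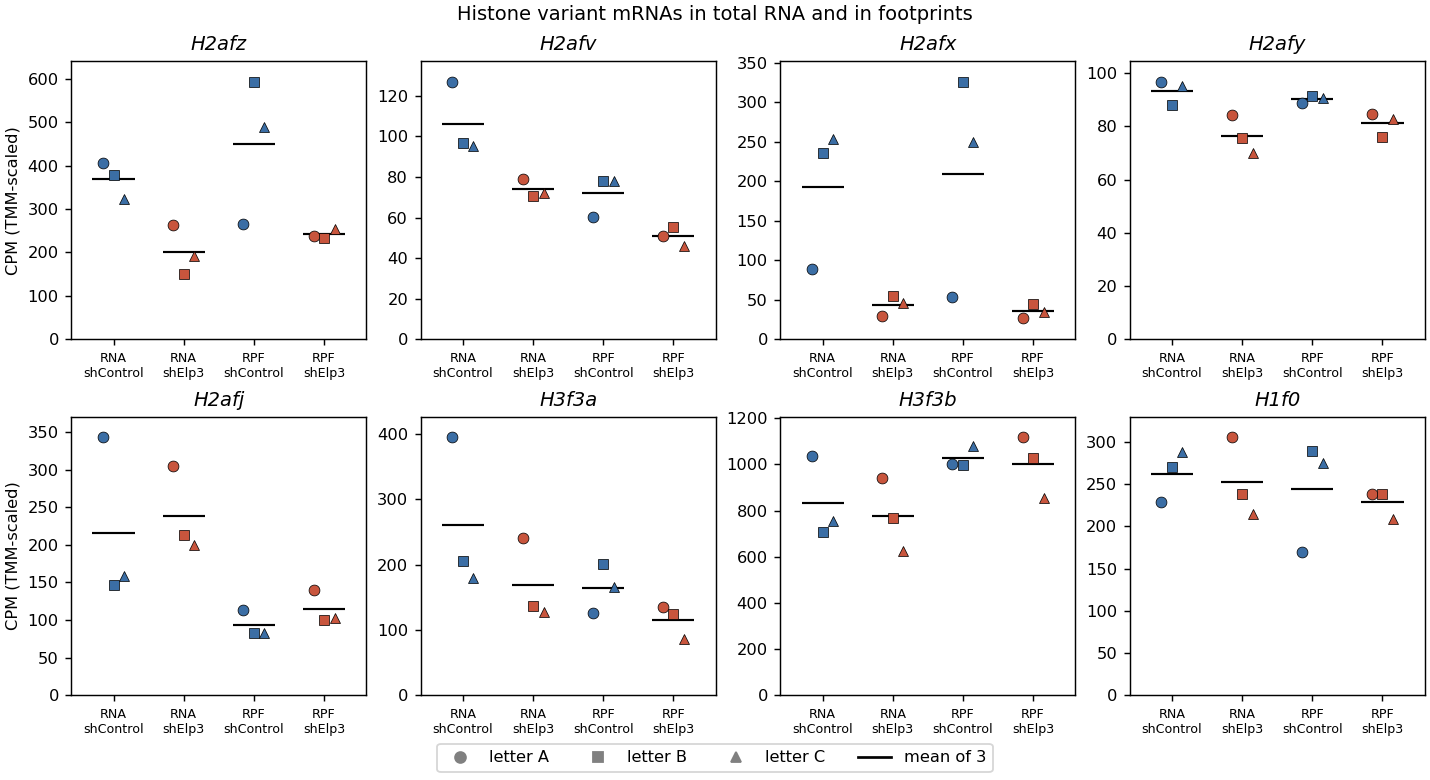
Abundance of the 8 measured histone variants in CPM scaled by TMM (vertical axes, each from 0) in the 4 groups. Symbols are single libraries, shaped by letter, and bars are group means (n = 3). H2afx control libraries lie between 88.6 and 253 CPM in RNA and shElp3 libraries between 30.1 and 55.5, while the groups of H3f3b and H1f0 overlap in both fractions.

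The second comparison was of footprints, a readout of ribosomes on each mRNA. H2afx fell, and 7 of the 8 variants had values below 0, beside 5774 of 11343 genes. edgeR called 1 of 8, against 548 of 11343 genes (4.83%) in either direction and 3.06% lower, and DESeq2 called 2 (H2afx and H2afz), against 11.5% of genes in either direction and 6.88% lower. The median of the 8 was -0.33, beside -0.01 over all genes tested. The same 4 variants as in RNA (H2afz, H2afv, H2afx and H2afy) had groups that did not overlap, all lower, a pattern found in 15.3% of genes. These data did not show that letters pair the RPF libraries, so footprint differences within letters are given as values only.

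H2afx footprints were 54.2, 326 and 249 CPM in shControl A, B and C and 27.1, 44.2 and 35.2 CPM in shElp3. The control values of B and C were several times that of A, which lay just above the highest shElp3 value. The log2 fold change was -2.56 (SE 0.58, edgeR adjusted p = 0.0485), which leaves 16.9% of the control level, with -1.0, -2.88 and -2.82 within letters A, B and C. The call ended with a minimum count of 50 (edgeR adjusted p = 0.0519) and when control library B (0.131) or C (0.114), or any shElp3 library (A 0.204, B 0.181, C 0.172), was left out. It held without shControl A (-3.03, edgeR adjusted p = 1.57e-05).

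H2afz footprints were 267, 593 and 488 CPM in shControl and 237, 234 and 255 CPM in shElp3. The 3 shElp3 libraries lay close together, and the control A library lay near them. The change was -0.89 (SE 0.27, edgeR adjusted p = 0.0995), with -0.17, -1.34 and -0.94 within letters A, B and C. H2afv footprints were 60.5, 78.1 and 77.8 CPM in shControl and 51.1, 55.5 and 46.0 CPM in shElp3 (-0.50, SE 0.16, edgeR adjusted p = 0.109). H3f3a footprints were 126, 200 and 165 CPM in shControl and 135, 124 and 86.0 CPM in shElp3 (-0.51, SE 0.23, edgeR adjusted p = 0.224). Its groups overlapped, since letter A differed by 0.10 and letters B and C by -0.69 and -0.94. Without shControl A, H2afz (-1.17, edgeR adjusted p = 1e-04), H2afv (-0.63, 0.00534) and H3f3a (-0.68, 0.0187) were all called lower beside H2afx, against 24.8% of genes in either direction and 14.0% lower in that fit. With letters B and C only the same 4 were, against 21.7% of genes in either direction and 12.2% lower.

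The remaining variants differed little in footprints. H3f3b had 1003, 997 and 1081 CPM in shControl and 1117, 1028 and 856 CPM in shElp3 (-0.04, SE 0.14, edgeR adjusted p = 0.898). H2afy had 88.9, 91.4 and 90.5 CPM against 84.5, 76.0 and 82.9 (-0.15, SE 0.12, edgeR adjusted p = 0.491), groups that were narrow and did not overlap. H2afj was the 1 variant with a value above 0, at 113, 82.2 and 83.0 CPM in shControl and 140, 99.3 and 102 CPM in shElp3. It was higher within each letter, by 0.32, 0.27 and 0.30, but the groups overlapped across letters and it was not called (0.30, SE 0.20, edgeR adjusted p = 0.406). H1f0 had 170, 289 and 275 CPM in shControl and 239, 239 and 208 CPM in shElp3 (-0.10, SE 0.21, edgeR adjusted p = 0.812).

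**Figure D2:**
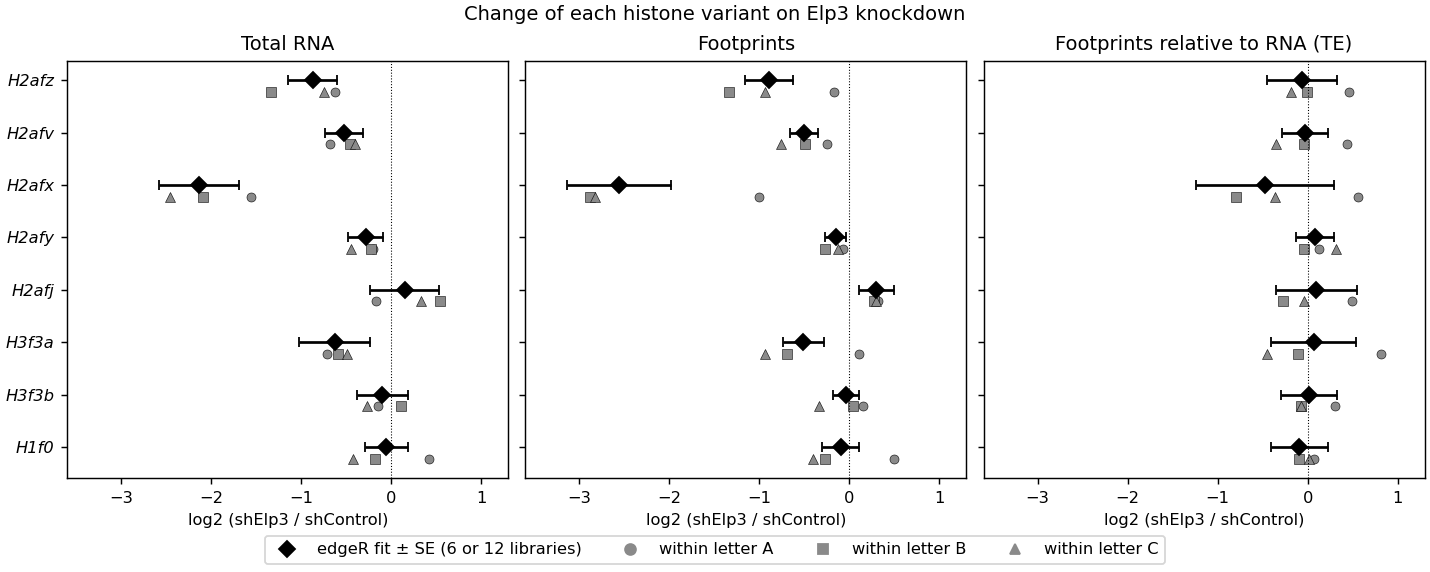
Log2 ratio of shElp3 to shControl (horizontal axes) for each variant in total RNA, in footprints and in their ratio, where a diamond is the edgeR fit with its SE and grey symbols are the differences within letters A, B and C. Pairing of the RPF libraries by letter was not shown, so the grey symbols for footprints are values only. H2afx lies at -2.14 in RNA and -2.56 in footprints, and all fitted TE values lie between -0.47 and 0.10.

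Translational efficiency (TE), footprints relative to RNA, was compared between shRNAs with an interaction term over all 12 libraries. This model did not pair each RPF library with the RNA library of its culture. No variant was called: edgeR gave 0 of 8 at an adjusted p under 0.05 and 0 of 8 at an unadjusted p under 0.05. Over all 11238 genes edgeR called 0 (0%) with 62 at an unadjusted p under 0.05, and DESeq2 called 0. With the culture as the block, which makes that pairing, 0 of 8 variants were called. The absence of calls does not show that TE was unchanged. The values ran from -0.47 for H2afx (SE 0.77) to 0.10 for H2afj (SE 0.45), with SEs of 0.21 (H2afy) or more. The letters went against each other. Within letter A all 8 variants had a TE value above 0 (median 0.45, against 53.7% of all genes above 0), and within letter B all 8 had a value below 0 (median -0.08, against 49.7% of genes below 0). Within letter C 6 of 8 were below 0. H2afx had 0.56, -0.79 and -0.37 and H3f3a 0.81, -0.10 and -0.45 within letters A, B and C.

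Footprints relative to RNA were then described in control cells, as a ratio of each gene's own footprint and RNA levels. The counted feature is not known, so the share of untranslated sequence may enter this ratio, which was not tested. H2afj had the lowest ratio of the 8, with log2 (RPF CPM / RNA CPM) values of -1.60, -0.83 and -0.93 in shControl A, B and C and -1.12, -1.10 and -0.97 in shElp3. Its control mean of -1.12 stood at percentile 17.2 of 11185 genes, and its shElp3 mean of -1.06 at percentile 18.4. In the model over both fractions it was the 1 variant called by edgeR (-1.07, SE 0.32, adjusted p = 0.0217), against 4100 of 11238 genes (36.5%) in either direction and 20.7% lower. The call ended without shControl B (edgeR adjusted p = 0.0523) or shControl C (0.0675). In shElp3 cells the 3 H2afj values lay below all values of the other 7 variants, and in shControl cells they overlapped those of H3f3a and H2afv.

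H3f3b and H2afz lay at the other end. H3f3b had -0.05, 0.49 and 0.52 in shControl (percentile 70.8 of its mean) and 0.25, 0.43 and 0.45 in shElp3, and was called higher in footprints than in RNA in the fit with the letter block (0.47, edgeR adjusted p = 0.0415) and not without it (0.45, 0.13). H2afz had -0.61, 0.65 and 0.59 in shControl and -0.15, 0.64 and 0.41 in shElp3, with letter A lowest in both groups. With the letter block H2afv was called lower in footprints than in RNA (-0.41, edgeR adjusted p = 0.0382), so 3 of 8 were called, against 53.6% of genes in either direction, 27.4% lower and 26.2% higher. With the culture as the block, which pairs each RPF library with its RNA library, H2afv (edgeR adjusted p = 0.0957) and H3f3b (0.053) were not called and H2afj was (-0.98, 0.00347). H3f3a, which encodes the same protein as H3f3b, had -1.65, -0.04 and -0.12 in shControl. The control means ran from H2afj (-1.12) through H3f3a (-0.60), H2afv (-0.56), H1f0 (-0.13), H2afx (-0.09), H2afy (-0.05) and H2afz (0.21) to H3f3b (0.32), and each neighbour in that order overlapped the next.

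**Figure D3:**
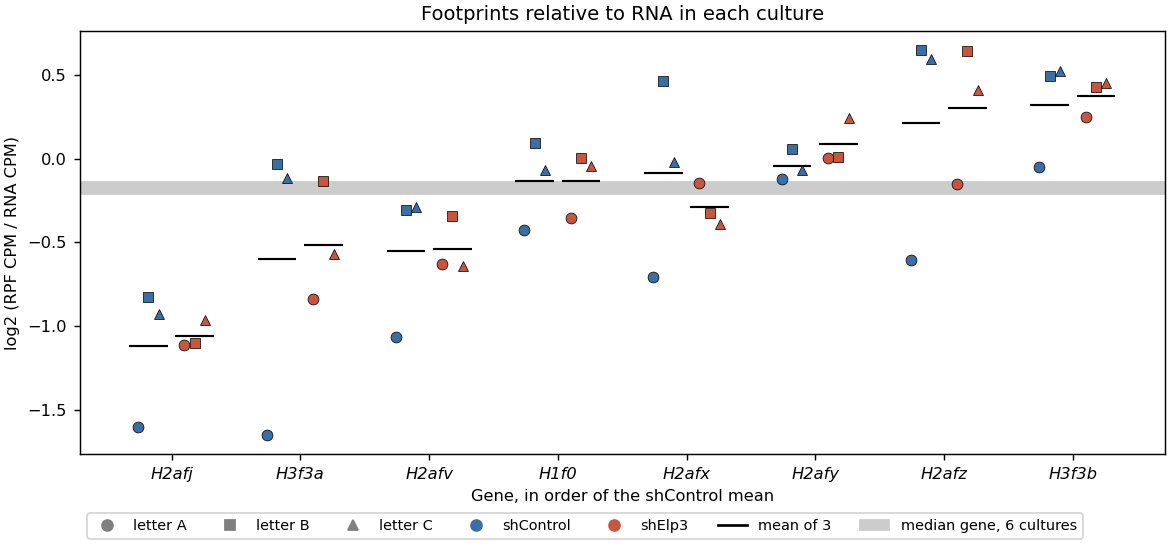
Footprints relative to RNA as log2 (RPF CPM / RNA CPM) on the vertical axis, for 8 variants in the order of their shControl mean, where each point is a culture marked by its letter, each bar is the mean of 3 and the grey band spans the median gene of the 6 cultures. H2afj lies between -1.60 and -0.83 in all 6 cultures, and control culture A is the lowest point of every variant.

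Ratios of 2 genes within a library, which do not depend on scaling, were compared for 3 pairs in each fraction. The fourth planned pair, H1f0 to H1fx, has no ratio because H1fx had 0 counts. The log2 count ratio of H3f3b to H3f3a was 1.39, 1.79 and 2.07 in control RNA and 1.96, 2.49 and 2.30 in shElp3 RNA, a difference of 0.50 with overlapping groups. In footprints it was 3.0, 2.32 and 2.71 against 3.05, 3.05 and 3.32, a difference of 0.47 without overlap (exact permutation test, two-sided p = 0.1, 0.24 after adjustment over 6 ratios), where 0.1 is the smallest p that 3 against 3 allows. H2afz to H2afv differed by -0.39 in RNA and -0.32 in footprints, with overlapping groups (exact p = 0.2 and 0.3). H2afx to H2afj differed by -2.27 in RNA and -2.53 in footprints (exact p = 0.2 and 0.1). None of the 6 can pass the threshold in this design.

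The replication-dependent histone genes, taken by symbol, had lower fold changes than most variants in the same libraries. Of 68 such genes 36 were tested in RNA, of which 7 fell, 0 rose and 36 had a value below 0, with a median of -1.26, and 23 fell with the letter block. Without shControl A 24 fell in RNA, where 373 of all 12404 genes tested in that fit were called lower. Without any other single RNA library 0 of these histone genes did. The fit without shControl B called 0 genes of the whole table, so its 0 says nothing particular to histones. In footprints 16 of 36 fell, 0 rose, and the median was -1.86. Without RPF library A of shControl 38 fell (more genes then passed the count filter), against 14.0% of all genes lower in that fit. Without RPF library B or C of shControl 3 each fell, and without any 1 shElp3 library 0. For those fits the share over all genes is not given here. The gene with the most counts, Hist2h2bb, had 374 ± 71.3 and 162 ± 38.0 CPM in control and shElp3 RNA (SD, n = 3), fell in RNA with the block (-1.21, edgeR adjusted p = 0.00291, against 0.106 without it) and fell in footprints (-1.79, SE 0.38, edgeR adjusted p = 0.0425). Hist1h1e, a linker histone, was not called in RNA without the block (-1.05, edgeR adjusted p = 0.202) and fell with it (0.00779). Of the variants outside the 9, Cenpa, the H3 variant of centromeres, was the 1 tested gene and fell in RNA (-2.27, SE 0.26, edgeR adjusted p = 0.0177) and in footprints (-2.63, SE 0.38, 0.0197). H2A.X at -2.14 and -2.56 lay beyond the median of the clustered genes, and the other 7 variants lay above it in both fractions.

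The factors that handle histones were counted from fixed lists. For comparison with all of these lists, 1519 of 12274 genes in RNA had an unadjusted p under 0.05 without the block. In footprints 2622 of 11343 genes did. With the block 6.75% of all genes tested in RNA fell. Of 13 replication-coupled chaperones and assembly factors 0 were called in RNA by edgeR without the block (6 at an unadjusted p under 0.05), 7 fell with it, and the median was -0.70. Asf1b, which hands H3-H4 to the assembly factors, fell in footprints (-1.58, SE 0.27, edgeR adjusted p = 0.0275). Of 17 genes that deposit or remove H2A.Z, 0 were called in RNA without the block (1 at an unadjusted p under 0.05), 1 fell with it, and the median was -0.16. That gene was Anp32e, which takes H2A.Z off chromatin, at 137 ± 29.2 and 79.3 ± 11.4 CPM (SD, n = 3; -0.78 with the block, edgeR adjusted p = 0.00926). Trrap, a subunit of the p400 complex, had 204 ± 134 and 247 ± 106 CPM. Of the 7 H3.3 deposition genes 0 were called in RNA or footprints with or without the block (0 and 1 at an unadjusted p under 0.05 without it), with medians of -0.10 and -0.06. Atrx had 397 ± 148 and 323 ± 44.1 CPM and Ubn2, a HIRA partner, 114 ± 63.7 and 105 ± 41.4 CPM in RNA.

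Factors for the 3′ ends of replication-dependent histone mRNAs had a median of -0.69 in RNA, with 0 of 7 called without the block (5 at an unadjusted p under 0.05) and 3 lower with it. Slbp, the stem-loop binding protein, had 66.9 ± 3.22 and 35.8 ± 6.57 CPM (-0.91 with the block, edgeR adjusted p = 0.0039), and Eri1, an exonuclease, had 83.2 ± 6.82 and 58.1 ± 6.86 CPM. Of 9 genes listed for H2A.X phosphorylation and reading, 0 were called in RNA by edgeR without the block. The 1 at an unadjusted p under 0.05 there was Ppm1d, with a value above 0 (0.57, SE 0.21). With the block 1 gene of the list fell. That gene was Mdc1, which binds phosphorylated H2A.X (-0.72 with the block, edgeR adjusted p = 0.0438, against -0.94, SE 0.76, without it). In footprints Trp53bp1, which binds chromatin beside DNA breaks, rose from 90.2 ± 10.7 to 145 ± 4.91 CPM (0.68, SE 0.14, edgeR adjusted p = 0.0375). All of these comparisons share the same control libraries, so the lists are not independent of each other.

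**Figure D4:**
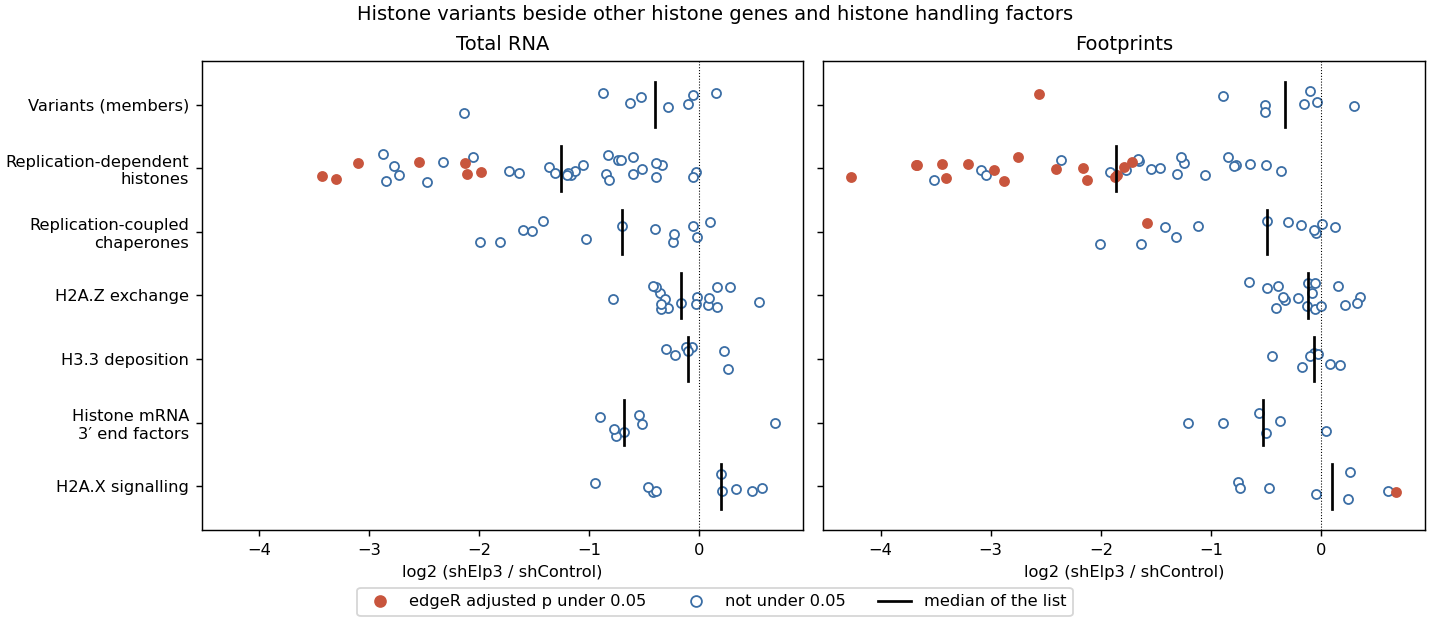
Log2 ratio of shElp3 to shControl (horizontal axes) for the 8 tested variants, the 36 tested replication-dependent histone genes and the lists of histone handling factors, in total RNA and in footprints, where filled points passed an edgeR adjusted p of 0.05 and bars are medians. The bars of the variants lie at -0.41 and -0.33 and those of the replication-dependent genes at -1.26 and -1.86.

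Genes whose pattern was most like each variant were taken from 9282 genes, by Pearson's r of log2 CPM over the 12 libraries after subtracting the mean of each fraction. The 12 points share libraries, letters and depth, so r is a description. H2afx was nearest to Spag5 (0.990), a spindle protein, Tk1 (0.990), thymidine kinase, and Hmgb2 (0.988). H2afz was nearest to Lsm8 (0.988), Slc25a13 (0.979) and Exosc8 (0.973), and H2afv to Cks1b (0.973), a cyclin-dependent kinase partner, Rfc2 (0.965), a clamp loader subunit, and Sept6 (0.965), a septin. H2afj was nearest to Trappc6a (0.986), Vps28 (0.973) and Chmp1a (0.972), which act in vesicle traffic and sorting. H3f3a was nearest to Ahcy (0.990), Chchd2 (0.966) and Bub3 (0.966), and H3f3b to Dtd1 (0.974), Mrfap1 (0.965) and Usf1 (0.958). H2afy was nearest to Usp16 (0.960), which encodes a deubiquitinase of H2A, Dcun1d5 (0.945) and Ezr (0.933). For H1f0, r was 0.935 with Tsfm and 0.930 with Nudt1.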

How the data were processed

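Total RNA and footprints of 12 libraries were used, in 4 groups of 3 taken from the labels. The authors deposited raw read counts for each gene symbol, without normalization. According to the submitters' processing notes, the tools were TopHat2 2.1.1, Bowtie, HTSeq and bcl2fastq, and the build mm10. What annotation, strand setting and feature were counted is not given in the sources used here, so overlapping, antisense and near-identical genes may share reads. Per the labels, Illumina's TruSeq Ribo Profile kit was used.

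Genes were filtered with filterByExpr (minimum count 10; for TE in both fractions), scaled by TMM and tested with edgeR 4.0.16 in R 4.3.3 (quasi-likelihood, Benjamini-Hochberg over all genes tested, threshold 0.05), with 12274 genes in RNA, 11343 in RPF and 11238 in TE. "Fell" and "rose" mean past that threshold in the fit named. The SE is the log2 fold change divided by the root of F. The functions were tested on simulated counts. The 9 genes and the gene lists were chosen with earlier results of these data known. All 9 are named. Of the genes most like a variant, 1 is not reported here. Of each list up to 4 genes called in RNA, RPF or TE between shRNAs without a block, or else the 2 most abundant, are named, and others named with a count of 1 were picked after their values were seen. Promoters came from RefSeq tables of GRCm38.p6. All 9 symbols matched a RefSeq gene. Alternatives were RLE size factors, DESeq2 1.42.0, other filters, size factors without the 20 most abundant genes, replicate blocks, letters B and C only, and leaving out each library.

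Whether letters pair the samples was checked from deviations from the group means across genes. Between shRNAs, r for the same letter (A, B and C) was 0.807, 0.423 and 0.582 in RNA and 0.769, 0.466 and 0.492 in TE. All were over 0.1. For B and C, different letters had values about as high. shControl B with shElp3 C had 0.688 in RNA and 0.519 in TE, and shControl C with shElp3 B had 0.579 and 0.587. Deviations in a group of 3 sum to 0, so with outlying A libraries r cannot show that B and C pair. The letter block still serves as a second fit in RNA and TE. It is printed where it changes the call of a variant or of a list whose count is given. In RPF r was 0.328, -0.107 and 0.215, so letters were treated as names there. These values do not show that RPF libraries of the same letter are unpaired.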

Additional observations from a re-analysis of the deposited data

How the results depend on the processing

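In RNA, 140 genes and 0 of 8 variants were called. DESeq2 called 652 and 2, the letter block 1499 and 3, letters B and C only 2377 and 4, and no count filter 203 (of 18542 genes) and 1. In footprints, 548 genes and 1 variant were called. DESeq2 called 1308 and 2, letters B and C only 2477 and 4, no filter 2 variants and a minimum count of 50 called 0. For those filter settings the count over all genes is not given here, so the variant counts have no share beside them. For TE, letters B and C only called 2 genes and 0 variants. For footprints against RNA in shControl, 4100 genes and 1 variant were called, letters B and C only called 7294 and 4, and the letter block 3 variants. Leaving out 1 library at a time gave 0 to 540 genes and 0 to 1 variants in RNA, 0 to 2856 and 0 to 4 in footprints, and, by culture, 2196 to 5611 and 0 to 3 for footprints against RNA. The replicate block changed no other call of a variant.

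Some small values changed sign. With 1 library left out, RNA ran from -0.067 to 0.65 for H2afj, -0.26 to 0.088 for H3f3b and -0.21 to 0.066 for H1f0, and footprints from -0.12 to 0.063 for H3f3b and -0.32 to 0.035 for H1f0. With 1 culture left out, TE ran from -0.40 to 0.24 for H2afz, -0.27 to 0.095 for H2afv, -0.22 to 0.23 for H2afj, -0.51 to 0.38 for H3f3a, -0.18 to 0.14 for H3f3b and -0.20 to 0.086 for H1f0. Footprints against RNA ran from -0.073 to 0.15 for H1f0, -0.037 to 0.38 for H2afx and -0.83 to 0.063 for H3f3a. TE of H2afz was 0.034 with the replicate block by letter and 0.033 by culture. With letters B and C only, TE was -0.17 for H2afj, -0.28 for H3f3a and -0.091 for H3f3b, and footprints against RNA were 0.080 for H3f3a. H1f0 footprints against RNA were -0.016 with a minimum count of 50. The cause was not tested. Where a group kept 2 libraries, the spread was pooled over those left. The 8 variants had 216 counts or more in every library, while H1fx at 0 counts has no fold change.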

Other observations

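Among the variants themselves, Pearson's r of log2 CPM over the 12 libraries, after subtracting each fraction's mean, was highest for H2afz with H2afv (0.90). It was 0.86 for H2afv with H3f3a and 0.81 for H2afz with H2afx. H3f3a and H3f3b had 0.80, while H3f3b with H2afx had -0.07. The lowest value was that of H2afx with H2afj (-0.71). In each RNA group, library A was the highest for H2afj and the lowest for H2afx. These values rest on libraries that share letters and depth and are a description.

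Dividing by all counts, the replication-dependent histone genes took 0.147, 0.282 and 0.295% of the control RNA libraries A, B and C and 0.147, 0.112 and 0.0832% of the shElp3 ones. The 9 variants took 0.221, 0.216 and 0.227% and 0.227, 0.181 and 0.165%. In footprints the shares of the replication-dependent genes were 0.155, 0.501 and 0.414% in control A, B and C and 0.127, 0.138 and 0.108% in shElp3. In this share control library A was closer to the shElp3 libraries than to control B and C, in both fractions.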
